A study of Mus musculus with 6 samples.

Results

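The genes followed here, 10 of the 24346 gene symbols in the files, link the sensing of blood flow to vessel tone in tumor endothelial cells (ECs). They are the flow-responsive transcription factors Klf2 and Klf4, the MEF2 factors Mef2a and Mef2c, the nitric oxide genes Nos3, Cav1 and Ddah2, and the endothelin genes Edn1, Ece1 and Ednrb. They were chosen by name as genes of the pathway, in part because Apelin signalling is known to act on KLF2 and on endothelial nitric oxide synthase. Each of the 10 averaged 1 FPKM (a unit that corrects fragment counts for transcript length and for the depth of the sample) or more, the minimum for testing, so all 10 were among the 10964 genes tested.

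RNA was sequenced from CD31-positive, CD45-negative cells sorted from MC38 tumors, a mouse colon carcinoma line grown under the skin, in 3 samples from wild-type (WT) mice and 3 samples from Apelin-knockout (Apelin-KO) mice. Both groups were young adult mice of the C57BL/6 strain, and the sample names of both also carry the word saline. The knockout is in every cell of the animal and from before birth, so it is not limited to ECs or to the time of the tumor. WT mice were purchased and the methods do not name them as littermates of the Apelin-KO mice. The labels do not say that the 3 samples of a group came from separate animals, so the p-values measure the spread between these samples, which may be technical.

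In ECs, laminar flow activates a kinase cascade that ends at ERK5, and ERK5 activates MEF2 factors, which bind the promoter of Klf2 and switch it on. KLF2 and the related KLF4 then raise Nos3, which makes the vasodilator nitric oxide, and lower Edn1, the precursor of the vasoconstrictor endothelin-1. Caveolin-1 holds the synthase inactive in caveolae, DDAH enzymes remove a natural inhibitor of it, ECE1 cleaves the endothelin precursor to its active form, and the endothelin B receptor on ECs binds endothelin and signals back to nitric oxide release.

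The promoter stretches of Klf2 and Edn1 are printed because they hold the sites by which the pathway is usually described. RefSeq windows on GRCm38.p6, from 250 bases before to 50 bases after a start site, were found for 9 of the 10 genes, with 15 windows in all, and Nos3 had no window. Searched on both strands were the KLF motif CACCC, the shear stress response element GAGACC and the MEF2 motif. Capitals in the Klf2 stretch mark the MEF2 motif, which reads the same way on both strands. In the Edn1 stretch, capitals mark the complements of CACCC, which reads GGGTG on the printed strand, and of GAGACC, which reads GGTCTC. Both are given 5′ to 3′ on the plus strand and end 1 base before the annotated transcript, at chr8:72318812-72319032 for Klf2 and chr13:42301226-42301475 for Edn1.

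Klf2: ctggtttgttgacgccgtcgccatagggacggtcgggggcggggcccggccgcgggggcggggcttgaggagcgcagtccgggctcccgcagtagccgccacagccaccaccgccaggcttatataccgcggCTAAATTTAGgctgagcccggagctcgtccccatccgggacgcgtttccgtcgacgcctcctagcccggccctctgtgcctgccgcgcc

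Edn1: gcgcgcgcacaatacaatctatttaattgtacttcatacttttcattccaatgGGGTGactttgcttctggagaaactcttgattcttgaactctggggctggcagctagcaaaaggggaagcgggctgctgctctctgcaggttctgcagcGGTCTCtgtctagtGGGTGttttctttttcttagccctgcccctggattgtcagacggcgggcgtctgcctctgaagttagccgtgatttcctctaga

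The MEF2 motif of Klf2 begins 118 bases before the RefSeq start site, from 72318944 to 72318953. Of the 15 windows, 2 held a MEF2 motif, those of Klf2 and Mef2a, where 3.2% of the 32817 RefSeq windows of the same length do. GAGACC was found in 2 windows, of Edn1 and Mef2c, where 16.4% of all windows hold it, and in Edn1 it lies 98 bases before the start site. CACCC was found in 10 windows of 7 genes, and 57.5% of all windows hold it, so that its presence singles out none of them. Windows of a gene can overlap, and windows 1 and 2 of Ece1 share the same CACCC site. A motif match is a description of the letters and does not show that a factor binds there.

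Apln itself, the gene removed in the knockout, averaged 457 ± 40.7 FPKM over the WT samples (SD, n = 3) and 17.3 ± 7.2 FPKM over the knockout samples (SD, n = 3), so the samples match their labels. The FPKM of a sample summed to between 489396 and 529018, and the depth, which the spacing of the lowest FPKM values allows to be estimated, lay between 8910000 and 10170000 reads. At that depth the gene with the lowest level, Klf4, rested on an estimated 122 to 242 reads per sample, and Klf2 on 1735 to 2743 reads. FPKM is scaled to transcript length and depth, so levels may be compared between genes.

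The 10 genes covered a wide range of levels. Cav1 was the highest at a mean of 1323 FPKM over the 6 samples, rank 22 of the 10964 genes tested. Ece1 followed at 220 FPKM, Ednrb at 210 FPKM, Klf2 at 149 FPKM, Nos3 at 114 FPKM and Ddah2 at 97.8 FPKM, all above at least 92.1% of the genes tested. Mef2a was at 54.9 FPKM, Mef2c at 26.4 FPKM, Edn1 at 16.4 FPKM and Klf4 at 6.90 FPKM. Ece1 and Ednrb could not be ordered, since Ece1 was the higher in 5 of 6 samples. Each of the other neighbours in this order was the higher in 6 of 6 samples, although the ranges over samples overlapped between Ednrb and Klf2, between Klf2 and Nos3, and between Nos3 and Ddah2.

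**Figure D1:**
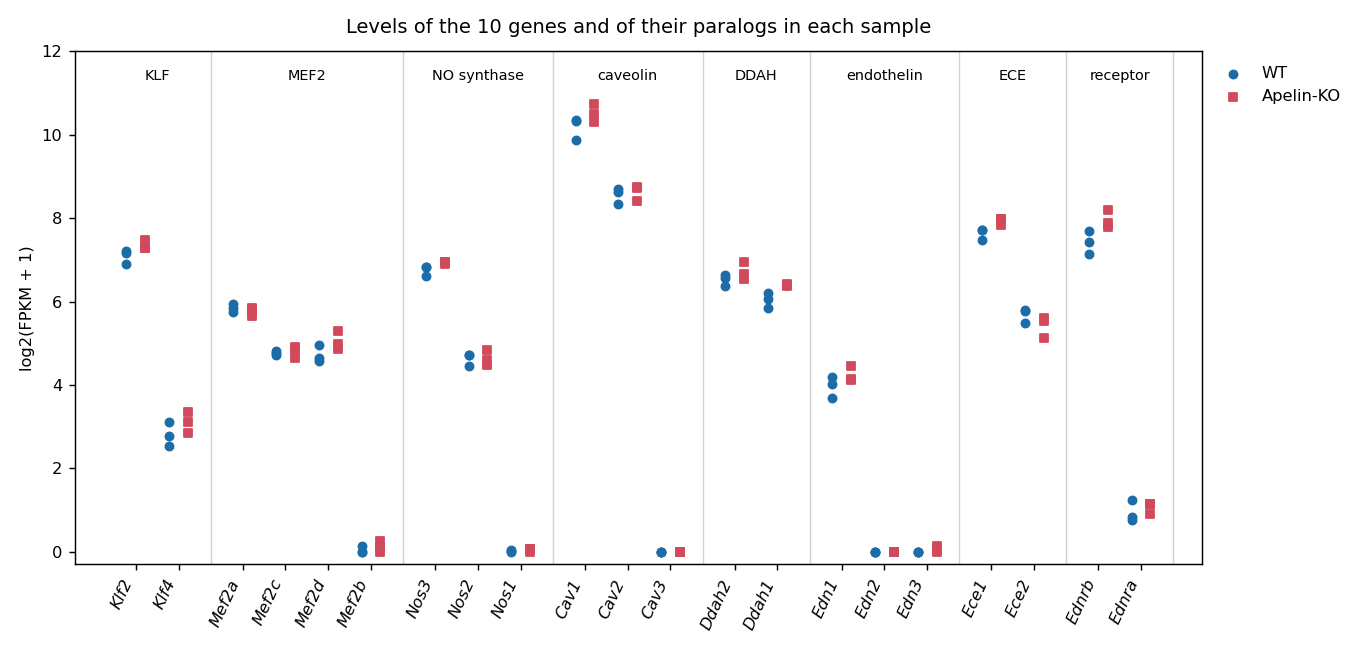
Level of the 10 genes and of the other members of their families in each sample, as log2(FPKM + 1) on the vertical axis, with circles for WT and squares for Apelin-KO. Klf2 lies well above Klf4, Nos3 above Nos2, and Ednrb above Ednra, while Mef2b, Nos1, Cav3, Edn2 and Edn3 lie at or near 0.

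To learn whether loss of Apelin came with a change in these genes, WT and Apelin-KO ECs were compared gene by gene with limma on log2(FPKM + 1), given below as WT minus Apelin-KO with its standard error. None of the 10 genes had an adjusted p-value under 0.05 (Benjamini-Hochberg over all genes tested, range 0.501 to 0.967), where 0.00912% of all genes had one, Apln alone. At an unadjusted p-value under 0.05, Ednrb and Ece1 were lower in WT ECs, 2 of 10 genes, where 4.25% of all genes tested were lower, and 0 of 10 were higher, where 5.17% were. For 9 of 10 genes, all but Mef2a, the log2 difference lay below 0, as for 52.5% of all genes. Once samples were scaled to endothelial markers, which moved the median of all genes from -0.01 to 0.21, it lay below 0 for 6 of 10 genes and for 13.4% of all genes. The median of the 10 was -0.27, beside -0.01 over all genes tested. For Klf2, Nos3, Ece1 and Ednrb every WT sample lay below every Apelin-KO sample, 4 of 10 genes where this held for 7.77% of all genes, and no gene was separated the other way, where 6.61% were. For each of these 4 genes the exact permutation test (two-sided) gave p = 0.1, the smallest that 3 against 3 samples allow.

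**Figure D2:**
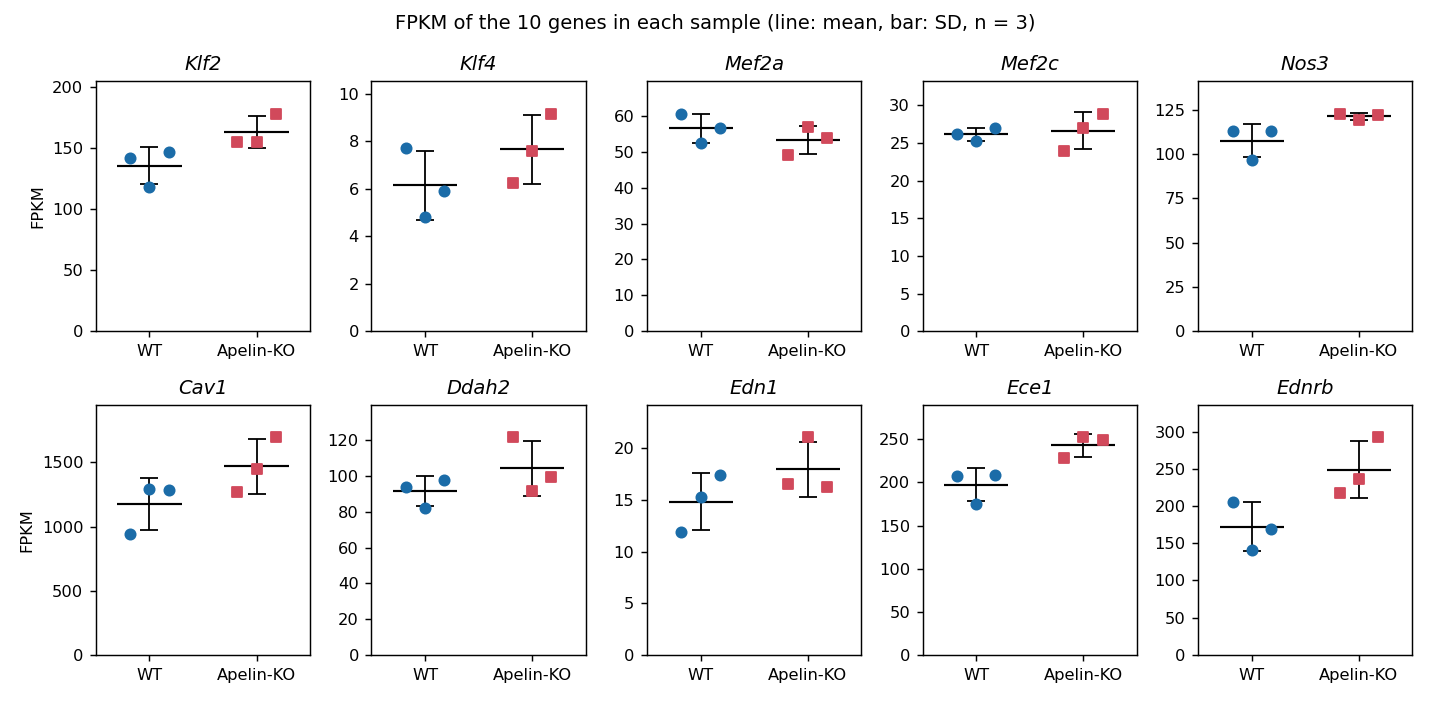
FPKM of each of the 10 genes in the 3 WT samples (circles) and the 3 Apelin-KO samples (squares), each panel on its own vertical axis from 0, with the mean as a line and the SD as a bar. Klf2, Nos3, Ece1 and Ednrb show no overlap between the genotypes, and the other 6 genes do.

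Klf2, the transcription factor through which flow keeps ECs quiescent, is a gene of 3 exons on the plus strand of chromosome 8, bases 72319033 to 72321656 of GRCm38. WT samples 1, 2 and 3 had 141.6, 118.2 and 146.3 FPKM, and Apelin-KO samples 1, 2 and 3 had 155.2, 155.1 and 178.0 FPKM. The lowest Apelin-KO sample lay just above the highest WT sample, and WT 2 stood lowest of all. WT ECs averaged 135 ± 15.1 FPKM (SD, n = 3) against 163 ± 13.2 FPKM (SD, n = 3) for the knockout, 120% of the WT mean. On the log2 scale Klf2 differed by -0.27 (standard error 0.12, 95% confidence interval -0.56 to 0.02, adjusted p = 0.543 from limma), and by -0.17 without WT 2.

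Klf4, which shares many targets with Klf2 in ECs and is also an immediate early gene, is on the minus strand of chromosome 4 (55527143 to 55532466). Its level was 7.70, 4.83 and 5.89 FPKM across WT 1, 2 and 3 and 6.25, 7.58 and 9.16 FPKM across Apelin-KO 1, 2 and 3. The groups overlapped, with WT 1 above Apelin-KO 1 and 2. Its log2 difference of -0.29 (standard error 0.19, 95% confidence interval -0.73 to 0.16, adjusted p = 0.658 from limma) could not be told from 0 given this spread. It was -0.15 without WT 2, -0.16 without Apelin-KO 3, -0.44 without WT 1 and -0.07 under the scaling to endothelial markers. Klf2 exceeded Klf4 by a ratio of 22.6 ± 3.62 (SD, n = 3) in WT and 21.6 ± 2.87 (SD, n = 3) in knockout samples, and these ratios overlapped.

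Beside Klf4, the immediate early genes that tissue dissociation switches on varied on average in the same order as Klf4 within each genotype, though not across the genotypes. Over 16 such genes, of which Dusp1 at 616 FPKM, Fos at 516 FPKM and Egr1 at 189 FPKM were the highest, the mean log2(FPKM + 1) of WT 1, 2 and 3 was 6.08, 5.60 and 5.81, and that of Apelin-KO 1, 2 and 3 was 5.50, 6.02 and 6.38. Not every gene of the list kept this order, and Btg2, for one, was highest of the WT group in WT 2. Both Klf4 and the mean of the list were highest in sample 1 and lowest in sample 2 of the WT group. In the Apelin-KO group both were highest in sample 3 and lowest in sample 1. By this mean Apelin-KO 1 was the lowest of all 6 samples, while by summed FPKM WT 2 was, at 1717 against 1860 for Apelin-KO 1. For Klf4, Apelin-KO 1 lay above WT 2 and WT 3. None of the 16 passed at p under 0.05, unadjusted, by limma in either direction, and their median log2 difference was -0.24. Under the scaling to endothelial markers 1 passed as higher in WT ECs, where 17.2% of all genes did, and the median was 0.00 beside 0.21 over all genes. The part of dissociation in the level of Klf4 was not tested.

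Mef2a and Mef2c, the MEF2 factors that carry the ERK5 signal to Klf2, had the smallest differences of the 10 genes in FPKM as deposited, though Mef2a had the largest in size, 0.32, under the scaling to endothelial markers. Mef2a, on the minus strand of chromosome 7 (67231163 to 67372858), stood at 60.6, 52.5 and 56.5 FPKM for WT 1, 2 and 3 and at 49.2, 56.9 and 53.8 FPKM for Apelin-KO 1, 2 and 3. Mef2c, on the plus strand of chromosome 13 (83504034 to 83667080), stood at 26.1, 25.3 and 27.0 FPKM for the WT samples and at 24.0, 27.0 and 28.9 FPKM for the knockout samples. Both overlapped between the groups. Their log2 differences were 0.08 (standard error 0.11, 95% confidence interval -0.17 to 0.34) for Mef2a and -0.02 (standard error 0.11, 95% confidence interval -0.27 to 0.23) for Mef2c, which turned above 0 without WT 2, without Apelin-KO 3 and under the scaling to endothelial markers. With each sample left out, Mef2a ranged from 0.03 (without WT 1 or Apelin-KO 1) to 0.14 (without WT 2). Among the other MEF2 genes, Mef2d was at a mean of 29.1 FPKM, close to Mef2c, and Mef2b at 0.0622 FPKM. Exons of Mef2a overlap those of Lysmd4 on the opposite strand, and since the strand setting of the counting is not given, reads of the overlap cannot be assigned.

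Nos3 encodes endothelial nitric oxide synthase and occupies bases 24364810 to 24384474 of chromosome 5, plus strand. FPKM of Nos3 were 112.9, 96.6 and 112.8 for WT 1, 2 and 3, and 122.7, 118.9 and 121.8 for Apelin-KO 1, 2 and 3. The 3 Apelin-KO samples lay close together, with a coefficient of variation of 1.66%, and above each WT sample. WT ECs averaged 107 ± 9.41 FPKM (SD, n = 3) and knockout ECs 121 ± 2.01 FPKM (SD, n = 3), 113% of the WT mean. This is a log2 difference of -0.18 (standard error 0.10, 95% confidence interval -0.42 to 0.07, adjusted p = 0.627 from limma), of -0.10 without WT 2, and of 0.07 under the scaling to endothelial markers. Exons of Atg9b overlap Nos3 on the opposite strand, and Atg9b itself was low, between 0.328 and 0.636 FPKM. Of the other synthases, Nos2, the inducible form, was at 24.0 FPKM with a log2 difference of -0.01 (standard error 0.13), and Nos1, the neuronal form, was at 0.025 FPKM.

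Cav1, which encodes caveolin-1, is on the plus strand of chromosome 6 (17306335 to 17341452). The WT samples 1, 2 and 3 reached 940, 1295 and 1288 FPKM, and Apelin-KO 1, 2 and 3 reached 1269, 1452 and 1696 FPKM. WT 1 stood lowest, and Apelin-KO 1 lay above it but just below WT 2 and WT 3. Cav1 differed by -0.33 on the log2 scale (standard error 0.17, 95% confidence interval -0.73 to 0.07, adjusted p = 0.586 from limma). Without WT 1 this was -0.18, and under the scaling to endothelial markers it was -0.09. Nos3 relative to Cav1 was 0.0941 ± 0.0235 (SD, n = 3) for WT and 0.0835 ± 0.0125 (SD, n = 3) for the knockout, with overlapping ranges.

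Ddah2, which breaks down the synthase inhibitor asymmetric dimethylarginine, is on the plus strand of chromosome 17 (35059035 to 35062095). Expression was 94.1, 81.9 and 98.0 FPKM for WT 1, 2 and 3 and 121.6, 91.8 and 99.3 FPKM for Apelin-KO 1, 2 and 3. The groups overlapped, and Apelin-KO 1 stood apart above the rest. Its log2 difference was -0.18 (standard error 0.14, 95% confidence interval -0.51 to 0.14, adjusted p = 0.703 from limma), and 0.06 under the scaling to endothelial markers. It was -0.07 without Apelin-KO 1 and -0.11 without WT 2. Its paralog Ddah1, at 74.3 FPKM, was lower in WT ECs with a log2 difference of -0.37 (standard error 0.12, adjusted p = 0.501 from limma), and every WT sample lay below every Apelin-KO sample.

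Edn1, the endothelin-1 precursor, begins right after the stretch printed above, on the plus strand of chromosome 13 (42301476 to 42307990). WT 1, 2 and 3 contained 11.9, 15.3 and 17.4 FPKM, and Apelin-KO 1, 2 and 3 contained 16.6, 21.1 and 16.3 FPKM. WT 3 lay above Apelin-KO 1 and 3, so the groups overlapped. The difference on the log2 scale was -0.27 (standard error 0.17, 95% confidence interval -0.66 to 0.13, adjusted p = 0.644 from limma). Leaving out WT 1 gave -0.12 and leaving out Apelin-KO 2 gave -0.15. Edn2 was listed at 0 in each sample and Edn3 at 0.105 FPKM or below, so that of the 3 endothelin precursors Edn1 alone averaged over 1 FPKM. An antisense gene of the annotation, Gm47118, overlaps exons of Edn1.

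Ece1, the endothelin-converting enzyme, is on the plus strand of chromosome 4 (137862237 to 137965229). Its FPKM came to 207.7, 175.4 and 208.9 for WT 1, 2 and 3 and to 227.9, 252.2 and 249.4 for Apelin-KO 1, 2 and 3. Every WT sample lay below every Apelin-KO sample. WT ECs averaged 197 ± 19.0 FPKM (SD, n = 3) compared with 243 ± 13.3 FPKM (SD, n = 3) for the knockout, 123% of the WT mean. Its log2 difference was -0.30 (standard error 0.11, 95% confidence interval -0.57 to -0.04, adjusted p = 0.513 from limma). Ece2, the second converting enzyme, was at 46.7 FPKM with a log2 difference of 0.26 (standard error 0.16, adjusted p = 0.641), and its exons overlap those of another gene on the same strand.

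Ednrb, the endothelin B receptor, showed the largest difference of the 10 genes in FPKM as deposited. The gene is on the minus strand of chromosome 14 (103814625 to 103844402). Levels were 206.0, 140.5 and 169.8 FPKM for WT 1, 2 and 3 and 218.2, 236.0 and 292.3 FPKM for Apelin-KO 1, 2 and 3. WT 1 came near Apelin-KO 1, while WT 2 and Apelin-KO 3 were the extremes. WT ECs averaged 172 ± 32.8 FPKM (SD, n = 3) and knockout ECs 248.8 ± 38.7 FPKM (SD, n = 3), 145% of the WT mean. Ednrb differed by -0.54 on the log2 scale (standard error 0.18, 95% confidence interval -0.95 to -0.12, adjusted p = 0.501 from limma).

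The other endothelin receptor, Ednra, which is typical of smooth muscle, was at 1.03 FPKM, and had a log2 difference of -0.12 (standard error 0.16). Its low level left the ratio of Ednrb to Ednra between 102 and 301 over the 6 samples. Against Ece1, Ednrb stood at a ratio of 0.868 ± 0.107 (SD, n = 3) for WT and 1.02 ± 0.131 (SD, n = 3) for the knockout, with overlapping ranges. Against its ligand gene Edn1 the ratio was 12.1 ± 4.56 (SD, n = 3) for WT and 14.1 ± 3.47 (SD, n = 3) for the knockout, again with overlap.

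The calls on Ednrb and Ece1 did not hold with each sample left out, and leaving 1 out also gives the test fewer samples. Ece1 lost the call without Apelin-KO 2 and without Apelin-KO 3. Its log2 difference was then -0.28 in both fits, near the -0.30 of all samples. Without WT 2, or without Apelin-KO 3, limma left 0 of 10 genes with an unadjusted p-value under 0.05, and the unadjusted p-value of Ednrb was 0.0597 and 0.059. Without Apelin-KO 2, Ednrb alone passed, and without WT 1, Klf4 passed beside them. The direction of Ednrb held with each of the 6 samples left out, with a log2 difference between -0.67 and -0.40, and that of Ece1 likewise, between -0.35 and -0.22.

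Markers of several cell types also leaned towards 1 genotype, though none had an adjusted p-value under 0.05 by limma. Of all genes tested, 4.25% had an unadjusted p-value under 0.05 as lower in WT ECs and 5.17% as higher. All 13 endothelial markers, among them Pecam1 (the CD31 of the sort), Cdh5 and Vwf, were tested, all 13 were lower in WT ECs and 4 passed an unadjusted p-value under 0.05. Their median log2 difference was -0.24, close to the -0.27 of the 10 genes, and their summed level was 4147 to 4951 FPKM in WT and 5107 to 5363 FPKM in Apelin-KO ECs, without overlap. Hematopoietic markers, which the CD45 gate should remove, went the other way. Of 15 such markers 14 were tested, all 14 were higher in WT ECs and 7 passed likewise, with a median log2 difference of 1.25. Their summed level was 483 to 1527 FPKM in WT and 192 to 594 FPKM in Apelin-KO ECs, with none listed at 0 in all samples, and Ptprc, which encodes CD45, measured 3.13, 4.84 and 1.27 FPKM for WT 1, 2 and 3 and 0.043, 1.70 and 0.740 FPKM for Apelin-KO 1, 2 and 3. WT 2, the lowest sample for Klf2, Nos3, Ece1 and Ednrb, was the highest for the hematopoietic markers and the lowest for the endothelial markers. For Ece1 and Ednrb other samples did not follow the order of the hematopoietic markers. Apelin-KO 1, the lowest for these markers, was also the lowest knockout sample for Ece1 and Ednrb. WT 1, the second highest for these markers, had the highest Ednrb of the WT samples. Of these 4 genes, Klf2 alone ranked all 6 samples as the mean log2 level of the endothelial markers did, with Apelin-KO 1 and 2 nearly equal for Klf2. Of 10 fibroblast markers 8 were tested and 4 passed, all higher in WT ECs (225 to 393 FPKM in sum against 148 to 235 FPKM). Of 10 pericyte markers 7 were tested and 1 passed, Rgs5, which was lower in WT ECs (145 to 185 FPKM in sum against 191 to 216 FPKM). Of 8 tumor cell markers, which summed to 8.46 to 13.6 FPKM in WT and 9.40 to 21.7 FPKM in Apelin-KO ECs, 1 was tested, Krt20, and did not pass, and Epcam was at 0.264 FPKM or below. Of 5 lymphatic markers 5 were tested and 0 passed (127 to 264 FPKM against 136 to 222 FPKM). The part of other cells in the differences of the 10 genes was not tested beyond the scaling that follows. In sorted bulk samples, fewer ECs in the sort and less RNA of a gene per EC cannot be told apart.

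Set against the endothelial markers, the differences of most of the 10 genes shrank towards 0. In an alternative chosen after seeing the data, each sample was scaled to the same mean log2 level of the 13 endothelial markers. Klf2 then had a log2 difference of -0.02 (standard error 0.12, 95% confidence interval -0.30 to 0.25), Nos3 of 0.07 (standard error 0.12), Ece1 of -0.06 (standard error 0.12) and Edn1 of -0.04 (standard error 0.18). Relative to the mean of the markers, log2 Klf2 stood at -0.71, -0.81 and -0.81 for WT 1, 2 and 3 and at -0.82, -0.78 and -0.67 for Apelin-KO 1, 2 and 3, so the groups overlapped. Ednrb kept the largest difference below 0 at -0.29 (standard error 0.17, 95% confidence interval -0.67 to 0.09), with overlapping groups.

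The sign turned for Mef2c, Nos3 and Ddah2, and Mef2a at 0.32 (standard error 0.14, 95% confidence interval 0.01 to 0.64, adjusted p = 0.275 from limma) was the 1 gene of 10 to pass the unadjusted threshold of 0.05, where 17.2% of all genes were then higher in WT ECs. Mef2a and Mef2c were the 2 genes whose groups did not overlap, higher in WT ECs as for 25.7% of all genes. Against the median of all genes under this scaling, 0.21, Mef2a lay above, Mef2c at 0.22 lay level with it, and the other 8 genes lay below it.

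**Figure D3:**
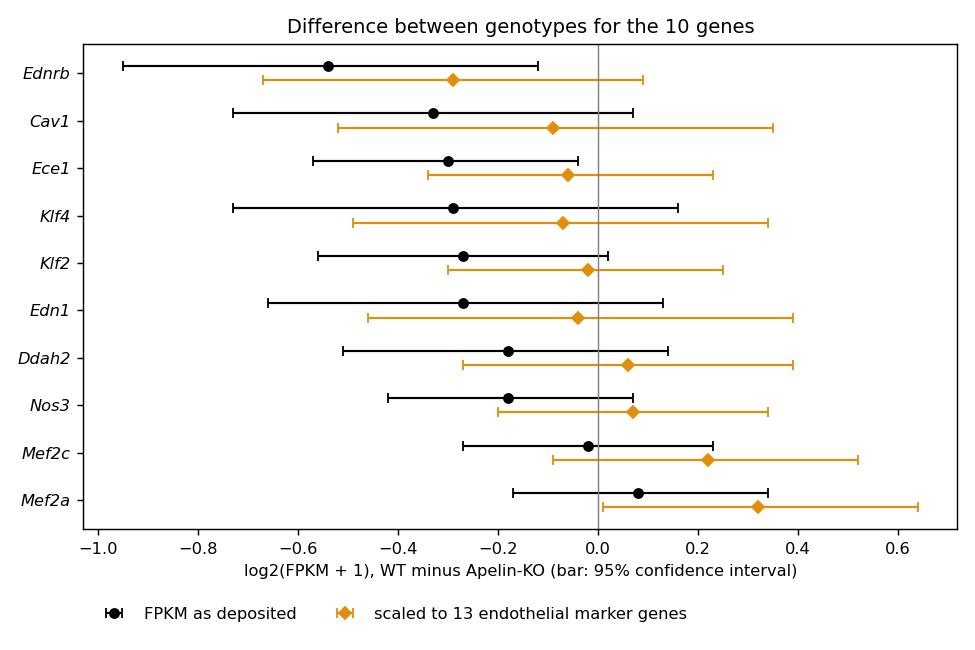
Log2(FPKM + 1) in WT minus Apelin-KO ECs for the 10 genes on the horizontal axis, with 95% confidence intervals from limma, for FPKM as deposited (black circles) and for FPKM scaled to the 13 endothelial markers (orange diamonds). As deposited, the intervals of Ednrb and Ece1 lie below 0, and after scaling that of Mef2a alone lies above 0.

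Related genes of the pathway were read from FPKM as deposited, and their list medians or counts are also given under the scaling to endothelial markers, to be read beside the median of all genes, which was -0.01 as deposited and 0.21 scaled. A list median that is above 0 but under 0.21 after scaling thus still lies below that of all genes. Counts are to be read beside the shares of all genes at an unadjusted p-value under 0.05. As deposited these were 4.25% lower and 5.17% higher in WT ECs, and under the scaling 17.2% were higher. Of 12 genes of the ERK5 branch and of the CCM complex, which restrains it, 11 were tested, 2 were lower and 0 higher in WT ECs by the unadjusted threshold of 0.05, with a median log2 difference of -0.17. Under the scaling 0 passed in either direction and the median was 0.07. As deposited, the 2 were histone deacetylases that hold MEF2 inactive, Hdac7 at -0.40 (standard error 0.14, adjusted p = 0.507 from limma) and Hdac5 at -0.30 (standard error 0.12, adjusted p = 0.521). Highest in level were Heg1, which anchors the CCM complex, at 63.0 FPKM, Map3k3, the kinase at the head of the cascade, at 52.2 FPKM and Ccm2 at 41.9 FPKM. Map3k3 had a log2 difference of -0.19 (standard error 0.09, adjusted p = 0.561). Mapk7, which encodes ERK5, was at 12.5 FPKM with a log2 difference of -0.20 (standard error 0.11, adjusted p = 0.610).

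Of 10 genes of flow sensing, all 10 were tested, 2 passed the same threshold as lower and 0 as higher in WT ECs, with a median log2 difference of -0.14. Under the scaling 0 passed as lower and 1 as higher, and the median was 0.10. Pecam1, Cdh5 and Kdr of this list are among the 13 genes that set the scaling, so the list and the scaling are not independent. The 2 lower as deposited were Cdh5 and Pecam1, which are also endothelial markers, at -0.46 (standard error 0.17, adjusted p = 0.512 from limma) and -0.33 (standard error 0.12, adjusted p = 0.513). Highest in level were Pecam1, the VEGF receptor Kdr at 343 FPKM and Cdh5. Kdr had a log2 difference of -0.13 (standard error 0.11), and the flow-gated channel gene Piezo1, at 50.7 FPKM, one of -0.17 (standard error 0.09).

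Of the 15 other KLF genes, 9 were tested and 1 passed the threshold as lower in WT ECs, Klf13 at -0.39 (standard error 0.13, adjusted p = 0.503 from limma), with 0 higher. Their median was -0.11. The scaling ended the call on Klf13, with 0 passing in either direction, and gave a median of 0.12. Klf6 at 114 FPKM, Klf10 at 65.8 FPKM and Klf3 at 50.1 FPKM were the highest, all below Klf2 and above Klf4. Klf17 was listed at 0 in all samples.

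Genes known to follow KLF2 were next. Of 12 genes that KLF2 raises, 8 were tested, 1 was lower in WT ECs, the water channel gene Aqp1, and 0 were higher, with a median log2 difference of -0.14. Under the scaling, which Tek of this list helps to set, the call on Aqp1 was lost, 0 passed in either direction and the median was 0.10. Aqp1 measured 265, 243 and 294 FPKM for WT 1, 2 and 3 and 310, 336 and 424 FPKM for Apelin-KO 1, 2 and 3, a log2 difference of -0.41 (standard error 0.15, adjusted p = 0.511 from limma). The other 2 of highest level were Ppap2b, a lipid phosphatase, at 180 FPKM with a log2 difference of -0.08 (standard error 0.14), and Gja4, a connexin gene, at 148 FPKM with -0.12 (standard error 0.27). Thrombomodulin (Thbd), the classical KLF2 target of the clotting system, is in this list too and had a log2 difference of -0.02 (standard error 0.20). Of 7 genes that KLF2 lowers, all 7 were tested and 1 was higher in WT ECs, Vcam1, which encodes an adhesion molecule for leukocytes, with 0 lower and a list median of 0.10, or 0.29 under the scaling, where again 1 passed as higher and 0 as lower. Vcam1 measured 54.9, 85.9 and 45.6 FPKM for WT 1, 2 and 3 and 21.2, 36.5 and 36.2 FPKM for Apelin-KO 1, 2 and 3, a log2 difference of 0.96 (standard error 0.29, adjusted p = 0.501 from limma). The genotypes did not overlap, and WT 2 was the highest. The paper's own qRT-PCR of tumor ECs, however, reported no difference in VCAM-1 between the genotypes. The highest of this list, Adm at 203 FPKM and Angpt2 at 160 FPKM, had log2 differences of -0.60 (standard error 0.33) and -0.06 (standard error 0.36).

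Of 24 other genes of nitric oxide synthesis and control, 20 were tested, 4 passed the threshold as lower and 1 as higher in WT ECs, with a median log2 difference of -0.06. Under the scaling the median was 0.19, 0 passed as lower and 3 as higher, where 17.2% of all genes passed as higher. Beside Ddah1, the 3 lower as deposited were Sdpr and Ptrf, which encode the caveolar coat proteins cavin-2 and cavin-1, and Nostrin, which carries the synthase away from the membrane. Sdpr measured 47.5, 59.2 and 60.05 FPKM for WT 1, 2 and 3 and 73.2, 69.9 and 93.3 FPKM for Apelin-KO 1, 2 and 3, a log2 difference of -0.49 (standard error 0.15, adjusted p = 0.501 from limma). Ptrf was at -0.36 (standard error 0.13, adjusted p = 0.509) and Nostrin at -0.38 (standard error 0.15, adjusted p = 0.522). Of the other caveolar genes, Cav2 at 387 FPKM had a log2 difference of -0.08 (standard error 0.14) and Prkcdbp, which encodes cavin-3, of -0.06 (standard error 0.11). Hsp90aa1, a chaperone gene, was the 1 higher in WT ECs, at 0.27 (standard error 0.11, adjusted p = 0.525). Among those of highest level were Prkcdbp at 470 FPKM and Hsp90ab1, another chaperone gene, at 444 FPKM. Cav3, the muscle caveolin, was listed at 0.

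The 5 genes of the nitric oxide receptor and its effectors, which act in smooth muscle, were all under a mean of 1 FPKM and none was tested. The highest were the guanylate cyclase subunits Gucy1a3 at 0.707 FPKM and Gucy1b3 at 0.478 FPKM and the kinase Prkg1 at 0.130 FPKM. Of 6 other endothelin genes, 3 were tested and 1 was higher in WT ECs, Mme, a membrane peptidase that breaks down endothelin at a mean of 16.4 FPKM, which had a log2 difference of 1.04 (standard error 0.34, adjusted p = 0.501 from limma) and overlapped between the groups. The median of the 3 was 0.26, and under the scaling 2 of the 3 passed as higher and the median was 0.50. Of the apelin genes, the receptor gene Aplnr was at 386 FPKM with a log2 difference of -0.13 (standard error 0.22, adjusted p = 0.880), which turned above 0 under the scaling, and Apela, the other ligand, was listed at 0 in all samples.

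**Figure D4:**
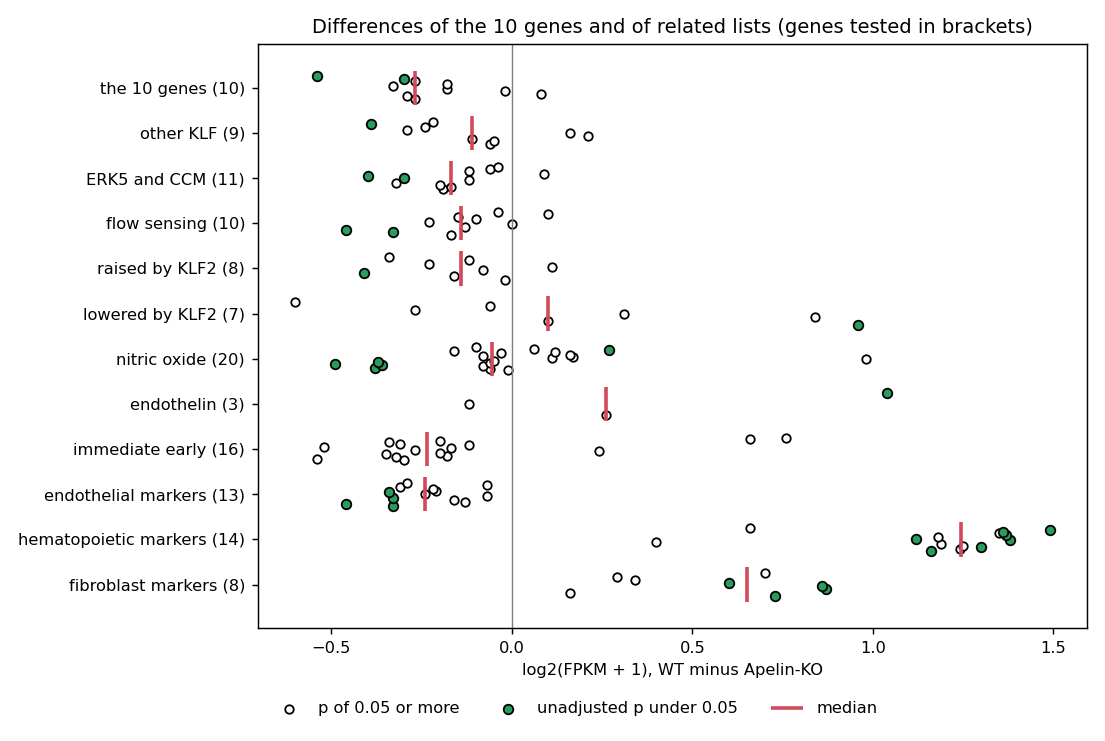
Log2(FPKM + 1) in WT minus Apelin-KO ECs on the horizontal axis for the 10 genes and for related lists, 1 point per gene tested, filled where the unadjusted p-value was under 0.05, with the median as a red line. The medians of the 10 genes and of the endothelial markers lie at -0.27 and -0.24, and that of the hematopoietic markers at 1.25.

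As a description, the genes whose log2(FPKM + 1) followed Klf2 most closely over the 6 samples were Lrp5 (Pearson r = 0.999), Sh2d3c (0.996) and Ptger1 (0.995). They were at 3.63, 67.4 and 21.3 FPKM in WT ECs and at 5.34, 73.9 and 25.4 FPKM in Apelin-KO ECs. For Nos3 they were Ncor1 (0.992), Ctsf (0.991) and Plcg1 (0.989). Of the genes tested, 315 (2.87%) had an r above 0.9 with Klf2 and 184 (1.68%) with Nos3.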

How the data were processed

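RNA-sequencing of sorted tumor ECs was available for 3 WT and 3 Apelin-KO samples. The authors made stranded mRNA libraries, sequenced single-end reads and mapped them to mm10. Per the labels, the processing notes name TopHat2 2.1.1, Bowtie2 2.2.4, SAMtools 1.0 and Cufflinks 2.2.1. The deposited values are FPKM computed by the authors, 1 per gene symbol and sample, without read counts. The annotation, strand setting and filters are not given in the sources used here. FPKM divides by the reads of the whole sample, so RNA of other cells in a sample can lower the values of EC genes.

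The genotypes were compared by limma 3.58.1 (R 4.3.3), as log2(FPKM + 1), over genes whose mean FPKM was 1 or more (two-sided moderated test, Benjamini-Hochberg adjustment). On this scale the change of low genes is understated. The study names an unmoderated two-sided test, used here as an alternative. The script was tested on simulated data. Depth was estimated from the low values of 3742 genes that have 1 annotated transcript, assuming 200-base fragments, and between 69.2% and 72.3% of low values lay within 0.1 of a whole read. Reads of single genes use the longest GENCODE transcript.

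Named are the 10 genes with all values, and of each related list the genes with an unadjusted p-value under 0.05, the 3 of highest level and paralogs of the 10, plus Apln and the 3 genes most correlated with Klf2 and with Nos3. A gene of the lists is not reported here. Thbd, Piezo1, Mapk7, Klf17 and the marker genes named were singled out after their values were seen. The 10 genes and the lists were chosen with earlier results of these data known. Alternatives changed the pseudocount, filter, scaling, variance model, block and samples. Python 3.11.15 was used for tables and plots.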

Additional observations from a re-analysis of the deposited data

How the results depend on the processing

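The directions of 9 of the 10 genes held under all 15 listed alternatives, and none of the 10 reached an adjusted p-value under 0.05 under any of them. The exception was Mef2c, whose log2 difference of -0.02 was 0.003 without WT 2 and 0.038 without Apelin-KO 3, in a range from -0.091 to 0.038 with each sample left out. Under the endothelial marker scaling, chosen after seeing the data, it turned to 0.216 for Mef2c, 0.068 for Nos3 and 0.061 for Ddah2. The number of the 10 genes with an unadjusted p-value under 0.05 was 2. It was 1 after quantile normalization (Ednrb), 1 with the variance of each gene alone (Ece1), 1 under the marker scaling (Mef2a), 3 with an intensity trend (Klf2 added), and between 0 and 3 with each sample left out. With the replicate block it was 2, Ednrb and Cav1 in place of Ece1 (unadjusted p-values of 0.0306, 0.0393 and 0.0665), and no other call changed. The number without overlap was 4, 3 after quantile normalization and 2 under the endothelial marker scaling.

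Over all genes, 1 had an adjusted p-value under 0.05. The count was 2 when the pseudocount was 0.01, when genes were not filtered, when the minimum mean was 5 FPKM and with an intensity trend, 0 with the variance of each gene alone (783 at an unadjusted p-value under 0.05), and between 0 and 3 with each sample left out (0 without WT 2 or Apelin-KO 2, 3 without WT 1). At an unadjusted p-value under 0.05 there were 1033 genes, 1946 with the endothelial marker scaling and between 536 and 1228 with each sample left out (536 without WT 2, 675 without WT 1 and 1164 without Apelin-KO 2). The causes of these changes were not tested, and a fit without 1 sample also has fewer samples. Deviations from the group means correlated at -0.139, 0.207 and -0.019 between samples of the same replicate number. Between samples of different number the correlations ran from -0.195 to 0.212. With 3 samples a group these values cannot decide whether the numbers pair the samples. With 3 samples a group, the confidence intervals given show the precision of each difference.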
